A study of Mus musculus with 4 samples.

Results

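Nrf2 target genes and metallothioneins, genes of antioxidant and metal defence, were followed in mouse brain after a stroke. The members were the 10 genes Hmox1, Nqo1, Gclc, Gclm, Srxn1, Txnrd1, Slc7a11, Mt1, Mt2 and Mt3, out of 16534 genes that the array named by symbol. They were chosen by symbol, through the RefSeq accession that the scanner files give for each probe, and were covered by 14 probes on 23 spots. The tissues were ischemic core, healthy core, ischemic penumbra and healthy penumbra from brains of male C57BL/6J mice, 9 weeks old. The tissue was taken 6 h after permanent middle cerebral artery occlusion (PMCAO) with an intraluminal filament, in animals given an intracerebroventricular injection of saline. Blood flow falls most in the core, and the penumbra is the less deprived rim around it. Every group shared the saline injection, per the labels. The labels speak of 3 mice per group with neurological grades G1 and G2, do not mention pooling, and leave the origin of the healthy tissue (other hemisphere or separate mice) unstated. Each of 4 two-colour arrays carried ischemic RNA in 1 dye and the corresponding healthy RNA in the other. Core replicate 1 and penumbra replicate 3 had the ischemic RNA in Cy5; core replicate 2 and penumbra replicate 4 had it in Cy3.

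Nrf2, encoded by Nfe2l2, is a transcription factor that Keap1 holds in the cytoplasm and hands to degradation. Oxidants and electrophiles modify Keap1, and Nrf2 then accumulates, pairs with a small Maf protein and binds antioxidant response elements (AREs) near genes of glutathione, thioredoxin, quinone and heme metabolism. Metallothioneins are small cysteine-rich proteins that bind zinc and copper and scavenge radicals; Mt1 and Mt2 are induced by zinc through the factor Mtf1, which binds metal response elements (MREs), and by glucocorticoids, while Mt3 is the brain-enriched member.

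The promoters of 3 members are shown because they carry different combinations of these elements. RefSeq windows of the 250 bases before a transcription start (GRCm38.p6) were at hand for 8 of the 10 members. In Mt2 (chr8:94172368-94172617, plus strand) capitals mark MREs, AP-1 motifs and AREs. In Srxn1 (chr2:152105274-152105523, plus strand) they mark AP-1 motifs. In Slc7a11 (chr3:50443614-50443863, minus strand) they mark an ARE and amino acid response elements (AAREs), the sites known to bind Atf4.
Mt2: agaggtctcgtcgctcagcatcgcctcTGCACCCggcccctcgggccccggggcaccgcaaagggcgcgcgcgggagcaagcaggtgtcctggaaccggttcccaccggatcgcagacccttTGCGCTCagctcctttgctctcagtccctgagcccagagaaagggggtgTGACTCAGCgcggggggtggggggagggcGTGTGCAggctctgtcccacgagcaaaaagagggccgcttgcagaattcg
Srxn1: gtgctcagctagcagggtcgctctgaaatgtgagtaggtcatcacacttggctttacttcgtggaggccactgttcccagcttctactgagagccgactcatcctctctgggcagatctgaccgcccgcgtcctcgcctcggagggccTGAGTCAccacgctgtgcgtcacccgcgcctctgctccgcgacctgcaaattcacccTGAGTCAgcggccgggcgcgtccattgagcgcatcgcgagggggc
Slc7a11: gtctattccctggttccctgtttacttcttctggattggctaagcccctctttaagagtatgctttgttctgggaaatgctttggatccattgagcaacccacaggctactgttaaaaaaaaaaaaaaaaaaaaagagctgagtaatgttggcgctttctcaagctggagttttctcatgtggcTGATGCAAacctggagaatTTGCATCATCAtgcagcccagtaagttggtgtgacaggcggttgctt

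Motifs were searched on both strands as TGACNNNGC or TGATNNNGC for the ARE, TGCACNC or TGCGCNC for the MRE, TGAGTCA for AP-1 and TGATGCAA for the AARE. Of 32851 RefSeq windows of this length, 16.3% held an ARE match, 21.4% an MRE match, 4.46% an AP-1 match and 0.791% an AARE match. In Mt2, MRE matches began 223, 128 and 50 bases before the start, and 1.26% of all windows held 3 or more. Its ARE match, 79 bases before the start, overlapped its AP-1 match. Slc7a11 held AARE matches 66 and 47 bases before the start, and the nearer of them overlapped its ARE match 45 bases before the start. The Slc7a11 start lies inside the gene's annotated interval, which begins farther upstream. The same holds for the Mt1 start (window chr8:94178839-94179088) and for the start of the Txnrd1 window chr10:82858956-82859205. Srxn1 held AP-1 matches 102 and 45 bases before the start and an MRE match at 19. Among the members with a window, 4 had an ARE match (Gclm, Txnrd1, Slc7a11 and Mt2), 4 an MRE match (Srxn1, Gclm, Mt1 and Mt2), 2 an AP-1 match (Srxn1 and Mt2) and 1 an AARE match (Slc7a11). The 8 members had 10 windows, because Txnrd1 had several. Of the Txnrd1 windows only chr10:82858956-82859205 held an ARE match. These are counts of genes, whereas the percentages above are shares of windows. A match describes the letters of the window and not a bound site.

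Ratios are log2 values after loess, a smooth fit over intensity within each array. They are thus relative to the bulk of features of like intensity. Levels and raw signals are named as such. The share of spots well above background ranged over the arrays and dyes between 76.1% and 79.4%, and 0 spots were saturated. The 2 arrays of a region form a dye-swapped pair, and no label says that they held different RNA extracts. Each pair was therefore counted as 1 replicate, genes were called by size with no p-value, and errors are given as the SD of a pair (n = 2 arrays), which includes dye bias. The 2-fold rule required a pair mean of 1 log2 unit or more, with each array past 1.5-fold on that side. A lesser rule required a pair mean of 0.32 log2 units or more with both arrays on the same side of 0. Scaling to 10 spike-in control probes would lower every ratio by 0.48 in core and 0.46 in penumbra tissue. The split of calls by the lesser rule over all features also moved with scaling. It was 1079 higher and 241 lower in ischemic core, against 1734 and 1378 with Agilent's processed signals and 136 and 20951 with spike-in scaling. In ischemic penumbra it was 1333 higher and 608 lower, against 2360 and 2118 with processed signals, 1059 and 1210 with median centring, and 116 and 19969 with spike-in scaling.

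Ischemic was first set against healthy tissue in each region, to see whether the antioxidant genes differed 6 h after occlusion. No member reached the 2-fold rule in either region. Hmox1 alone passed the lesser rule in ischemic core, and Gclc and Slc7a11 passed it in ischemic penumbra. Mt1 averaged 0.26 in ischemic penumbra, with both arrays above 0 at 0.50 and 0.02, and Mt2 averaged 0.15 or less in both regions. All 10 members were well above background in every tissue and dye. This does not show that no ratio is limited by a dim spot. With an offset of 0 in the background correction, the ratios of the dimmest members, Nqo1 and Slc7a11, lay farther from 0. For Slc7a11 they were 0.156 in the core and 0.514 in the penumbra, in place of 0.144 and 0.444. For Nqo1 they were -0.07 in the core and 0.061 in the penumbra, in place of -0.05 and 0.051.

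Of 24533 features in the core, 76 (0.31%) passed the 2-fold rule, against 0 of 10 members. In the penumbra 61 of 24925 features (0.245%) passed it, against 0 of 10 members. The lesser rule found 1 member higher and 0 lower in ischemic core, where 4.4% of features were higher and 0.982% lower. It found 2 members higher and 0 lower in ischemic penumbra, where 5.35% of features were higher and 2.44% lower. The median of the 10 member means was 0.11 in the core and 0.16 in the penumbra, against -0.01 over all features in each region. Both arrays were above 0 for 4 members in the core, where 26.9% of features met this, and for 5 in the penumbra, where 30.3% did. The mean was smaller than its SD for 7 members in the core and 5 in the penumbra, a count with no share over all features beside it. With spike-in scaling 19 of the 20 member means lay below 0, and only that of Hmox1 in the core, at 0.16, stayed above.

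**Figure D1:**
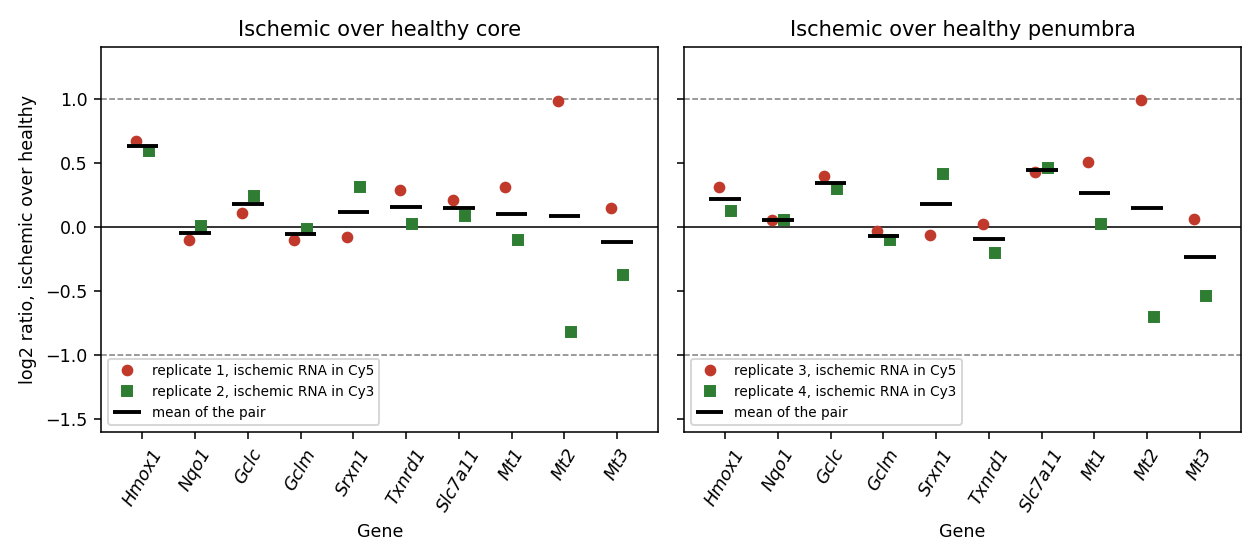
Log2 ratio of ischemic over healthy tissue for each member on each array, core on the left and penumbra on the right. Circles are arrays with ischemic RNA in Cy5, squares arrays with ischemic RNA in Cy3, bars the mean of each pair, and dashed lines 2-fold. The 2 arrays lie together for Hmox1 in the core (0.67 and 0.59) and far apart for Mt2 (0.98 and -0.82); with spike-in scaling every mean but that of Hmox1 in the core lies below 0.

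Hmox1 (chr8:75093618-75100593) encodes heme oxygenase 1, which breaks heme down to biliverdin, iron and carbon monoxide. Its log2 ratio was 0.67 on core replicate 1 and 0.59 on core replicate 2. Both core arrays lay above both penumbra arrays, which read 0.31 on replicate 3 and 0.13 on replicate 4. The mean was 0.63 ± 0.06 in the core, a 1.55-fold higher level in ischemic tissue, and 0.22 ± 0.13 (1.17-fold) in the penumbra. Of all features, 99% lay below Hmox1 in core and 88.8% in penumbra tissue. The dye bias of its probe, the mean Cy5 over Cy3 ratio of the swapped arrays, was small, at 0.04 in the core and 0.09 in the penumbra. Limma over arrays with no dye term, which measures only the spread between arrays, gave an adjusted p-value of 0.0296 in the core and 0.207 in the penumbra. With a dye term, which leaves 1 residual degree of freedom, these limma values were 1.59e-06 and 0.00299; 7088 of 25246 features (28.1%) then passed an adjusted p of 0.05 in the core and 10625 (42.1%) in the penumbra.

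Glutathione is made from cysteine, glutamate and glycine, and 3 members stand on that route. Slc7a11 (chr3:50364936-50499087), the transport subunit of the cystine and glutamate exchanger xCT, had the highest mean of all members in the penumbra. Its ratio was 0.21 and 0.08 on core replicates 1 and 2, and 0.43 and 0.46 on penumbra replicates 3 and 4. The mean was 0.14 ± 0.09 in the core and 0.44 ± 0.02 (1.36-fold) in the penumbra, where 97.4% of features lay lower. Its 2 other probes gave less. They had means of -0.05 ± 0.22 and -0.04 ± 0.07 in the core, and 0.15 ± 0.02 and 0.16 ± 0.03 in the penumbra. All 3 probes were thus above 0 on both penumbra arrays, but only the brightest passed the lesser rule, and the mean over probes, 0.25, did not. The limma adjusted p-value of the brightest probe in the penumbra was 0.0527 with no dye term and 3.25e-05 with one.

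Gclc (chr9:77754535-77794489) encodes the catalytic subunit of glutamate-cysteine ligase, the rate-limiting enzyme of glutathione synthesis. Its ratio was 0.11 and 0.24 on core replicates 1 and 2, and 0.39 and 0.29 on penumbra replicates 3 and 4. All 4 arrays were above 0 and the penumbra arrays lay above the core arrays. The mean was 0.18 ± 0.09 (1.13-fold) in the core and 0.34 ± 0.07 (1.27-fold) in the penumbra, and median centring lowered the penumbra mean to 0.24, below the lesser rule. Gclm (chr3:122245487-122267215), the modifier subunit of the same ligase, had -0.10 and -0.01 on the core arrays, and -0.04 and -0.10 on the penumbra arrays. All 4 of its arrays were below 0, with means of -0.06 ± 0.06 in core and -0.07 ± 0.05 in penumbra tissue.

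The other 3 enzymes reduce quinones, peroxiredoxins and thioredoxin. Srxn1 (chr2:152105524-152111376) encodes sulfiredoxin, which restores overoxidized peroxiredoxins. Its brightest probe read -0.08 and 0.31 on core replicates 1 and 2, and -0.06 and 0.42 on penumbra replicates 3 and 4, so its sign followed the dye in both regions. The means were 0.11 ± 0.28 in the core and 0.18 ± 0.34 in the penumbra, with dye biases of -0.20 and -0.24. The 2 dimmer probes showed little dye bias and were above 0 on all 4 arrays. They had 0.17 ± 0.04 and 0.20 ± 0.05 in the core. In the penumbra they had 0.36 ± 0.02 and 0.35 ± 0.11, past the lesser rule that the brightest probe missed. The mean over the 3 probes was 0.16 in the core and 0.30 in the penumbra.

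Nqo1 (chr8:107388225-107403205), the quinone reductase widely used as a readout of Nrf2, had -0.10 and 0.00 on the core arrays, and 0.05 and 0.05 on the penumbra arrays. Its means were -0.05 ± 0.08 (0.966-fold) in the core and 0.05 ± 0.00 (1.04-fold) in the penumbra. Txnrd1 (chr10:82833951-82897724) encodes the cytosolic thioredoxin reductase. It read 0.29 and 0.02 on core replicates 1 and 2, and 0.02 and -0.21 on penumbra replicates 3 and 4. Its mean was 0.16 ± 0.19 in the core and -0.09 ± 0.16 in the penumbra, each smaller than its SD. The Cy5 array read higher than the Cy3 array in both regions.

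Mt3, Mt2 and Mt1 lie in this order on chromosome 8 (chr8:94152607-94154148, chr8:94172618-94173567 and chr8:94178883-94180327), with 18469 bases between Mt3 and Mt2 and 5315 between Mt2 and Mt1. Their arrays differed with the dye orientation in both regions. Mt2 had a ratio of 0.98 on core replicate 1 and -0.82 on core replicate 2, and 0.99 on penumbra replicate 3 and -0.70 on penumbra replicate 4. Read from 1 array, Mt2 would thus appear almost 2-fold higher with ischemic RNA in Cy5 and lower with ischemic RNA in Cy3. The mean of the swapped pair was 0.08 ± 1.27 (1.06-fold) in the core and 0.15 ± 1.20 (1.11-fold) in the penumbra. The SD was larger than that of 99.9% of features in each region.

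Mt1 had 10 spots of its probe on each array. It read 0.31 and -0.10 on core replicates 1 and 2, and 0.50 and 0.02 on penumbra replicates 3 and 4. The means were 0.10 ± 0.30 (1.07-fold) in the core and 0.26 ± 0.34 (1.20-fold) in the penumbra. Spots of 1 array differed far less than the arrays did, with SDs over spots of 0.05, 0.04, 0.07 and 0.06 on replicates 1 to 4, after 3 marked spots were left out on replicate 3. The spots ranged between 0.21 and 0.39 on core replicate 1 and between -0.15 and 0.01 on core replicate 2, so they did not overlap. Mt3 had 0.15 and -0.38 on the core arrays, and 0.06 and -0.54 on the penumbra arrays. Its means were -0.12 ± 0.37 (0.923-fold) in the core and -0.24 ± 0.43 (0.848-fold) in the penumbra. For each of the 3 metallothioneins, in both regions, the pair mean was smaller than the SD, and the array with ischemic RNA in Cy5 read higher. That SD includes the dye bias, which cancels in the pair mean. In the penumbra limma gave Mt1, Mt2 and Mt3 adjusted p-values of 0.385, 0.905 and 0.518 with no dye term. With one they were 0.000887, 0.027 and 0.00176, where 42.1% of all features passed 0.05. In the core the limma values were 0.846, 0.975 and 0.863 with no dye term, and 0.114, 0.225 and 0.0834 with one.

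**Figure D2:**
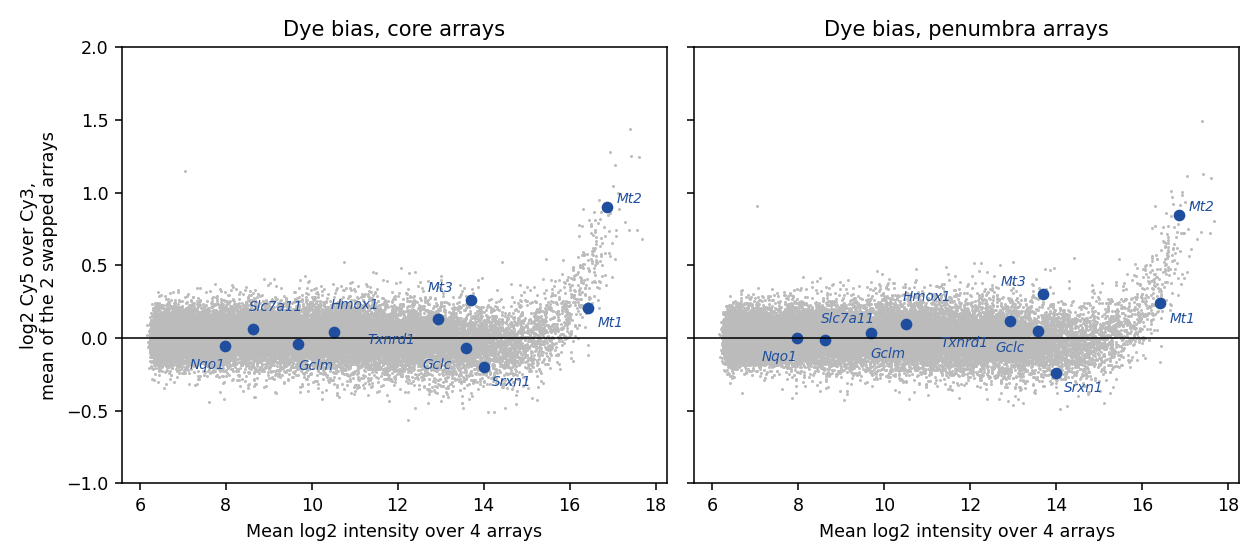
Dye bias (mean log2 ratio of Cy5 over Cy3 on the 2 swapped arrays, in which the tissues cancel) against mean log2 intensity, for 24199 features in grey and the members in blue, core arrays on the left and penumbra arrays on the right. Features bend upward above a log2 intensity of 16, where Mt2 (0.90 in core and 0.85 in penumbra tissue) and Mt1 (0.21 and 0.24) lie.

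Dye bias was largest among the brightest features, as the plot of dye bias against intensity shows. Features with a log2 intensity of 16 or more numbered 202 in core and 203 in penumbra tissue, and their median SD between arrays was 0.61 in the core and 0.59 in the penumbra. Features between 14 and 16 had a median SD of 0.13 in both regions. Mt2, with a log2 intensity of 16.87, had a dye bias of 0.90 on the core arrays and 0.85 on the penumbra arrays. Mt1, at 16.43, had 0.21 and 0.24. Mt3, at 13.70, had 0.26 and 0.30, although its brightness lay in the range where the median absolute dye bias was 0.08. Its SD exceeded that of 97% of features in the core and 98.4% in the penumbra. Across 24199 features the dye bias of the core arrays correlated with that of the penumbra arrays at 0.81, a description over features that share the 4 arrays of 1 slide.

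Raw signals were also read in each dye, before any normalization. Cy5 ran above Cy3 over whole arrays, with median spot signals of 284 to 310 against 192 to 225.5. The median Mt2 spot signal was 248186 in ischemic core and 231478 in healthy core in Cy5, and 62952.5 in ischemic core and 59801 in healthy core in Cy3. In the penumbra it was 226703 in ischemic and 229938 in healthy tissue in Cy5, and 56967 in ischemic and 64926 in healthy tissue in Cy3. Every Mt2 signal in Cy5 thus lay above every one in Cy3. The same held for Gclc (14937.5 to 16308 in Cy5, 8782 to 10727 in Cy3), whose dye bias was only -0.07 and 0.05. Such a separation of raw signals is therefore not particular to Mt2. The highest spot signals on an array ranged over 100852 to 136337 for Cy3 and 394335 to 555063 for Cy5, and whether bright Cy3 signals are compressed was not tested. For Hmox1 the raw core signal was 2345 in ischemic and 1711 in healthy tissue in Cy5, and 1728 in ischemic and 967 in healthy tissue in Cy3. Its raw penumbra signal was 1724.5 in ischemic and 1717 in healthy tissue in Cy5, and 1018.5 in ischemic and 1092.5 in healthy tissue in Cy3. The raw Hmox1 signals were thus higher in ischemic tissue in both dyes in the core, and differed in direction between dyes in the penumbra before normalization. Within a dye, however, the ischemic and healthy signals of a region came from different arrays, and raw signals are not corrected for array brightness. The median Cy3 spot signal was 192 on penumbra replicate 4 (ischemic RNA) and 223 on penumbra replicate 3 (healthy RNA). After normalization the Cy3 levels of Hmox1 were 10.52 in ischemic and 10.34 in healthy penumbra.

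The response in the core was then compared with that in the penumbra, with the difference also taken within each dye orientation, where the dye bias of a probe cancels. A difference was called at 1 log2 unit or more where the pair of core arrays did not overlap the pair of penumbra arrays, and 0 members met this, against 15 of 25246 features (0.0594%). With 0.32 in place of 1 log2 unit, 1 member, Hmox1, was higher in the core response, against 1.31% of features higher and 1.69% lower. Its difference was 0.36 with ischemic RNA in Cy5 and 0.47 with ischemic RNA in Cy3, with a mean of 0.41 ± 0.08 (SD over orientations). Limma gave an adjusted p-value of 0.782 for this difference with no dye term and 0.00346 with one.

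Slc7a11 went the other way, with a core minus penumbra difference of -0.22 in the Cy5 orientation and -0.38 in the Cy3 orientation (mean -0.30 ± 0.11), and it missed the lesser rule. Txnrd1 had 0.27 and 0.23, close to each other although its 2 arrays within a region were not (mean 0.25 ± 0.03). Mt1 had -0.19 and -0.13 (mean -0.16 ± 0.04) and Mt2 had -0.01 and -0.12 (mean -0.06 ± 0.07), whereas Mt3 had 0.08 and 0.16 (mean 0.12 ± 0.06). The SD of Mt2 between orientations was thus far below its SD between the arrays of a region. In all, 3 members had a higher core response in both orientations (Hmox1, Txnrd1 and Mt3) and 6 a lower one (Nqo1, Gclc, Srxn1, Slc7a11, Mt1 and Mt2). Gclm differed in sign between orientations. Over all features 35.6% were higher and 30.9% lower in both orientations.

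Each tissue was also read as a single-channel level, once in Cy5 and once in Cy3, and tissues were compared within a dye. Nqo1 was lower in core than in penumbra pieces, whether ischemic or healthy, by the lesser rule. Txnrd1 was lower in healthy core than in healthy penumbra by the same rule. No member passed the 2-fold rule between pieces. For healthy core over healthy penumbra 282 of 24891 features (1.13%) passed the 2-fold rule and 7.32% were lower by the lesser rule, against 2 members lower. For ischemic core over ischemic penumbra 337 of 24872 features (1.35%) passed the 2-fold rule and 8.86% were lower by the lesser rule, against 1 member lower.

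Hmox1 had log2 levels of 10.85 in Cy5 and 10.91 in Cy3 in ischemic core, 10.65 and 10.52 in ischemic penumbra, 10.39 and 10.34 in healthy penumbra, and 10.32 and 10.17 in healthy core. This order held in each dye, with healthy core over healthy penumbra at -0.07 in Cy5 and -0.16 in Cy3. Slc7a11 had 8.75 and 8.81 in ischemic core, 8.77 and 8.78 in ischemic penumbra, 8.73 and 8.55 in healthy core, and 8.33 and 8.34 in healthy penumbra. Its lowest tissue was healthy penumbra in both dyes, and the 2 ischemic tissues did not keep their order between dyes. Healthy core over healthy penumbra was 0.30 ± 0.14 for Slc7a11, while ischemic core over ischemic penumbra was 0.00 ± 0.03.

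Nqo1 had log2 levels of 7.70 and 7.77 in ischemic core, 7.77 and 7.80 in healthy core, 8.13 and 8.30 in ischemic penumbra, and 8.25 and 8.08 in healthy penumbra. Its core pieces lay below its penumbra pieces in each dye, with a core over penumbra difference of -0.48 ± 0.07 between ischemic pieces and -0.38 ± 0.15 between healthy pieces. Txnrd1 differed by -0.07 ± 0.10 between ischemic pieces and -0.32 ± 0.13 between healthy pieces. Mt2 read 17.30 to 17.35 in Cy5 and 16.33 to 16.59 in Cy3 over the 4 tissues, and its core over penumbra difference was -0.06 ± 0.04 between ischemic pieces and 0.00 ± 0.03 between healthy pieces. Mt1 differed by -0.15 ± 0.03 between ischemic pieces and 0.01 ± 0.01 between healthy pieces. Over the 10 members, 18 of 30 pairs of tissues next to each other in level kept their order in both dyes. No share over all features stands beside this count, so it describes the members only.

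**Figure D3:**
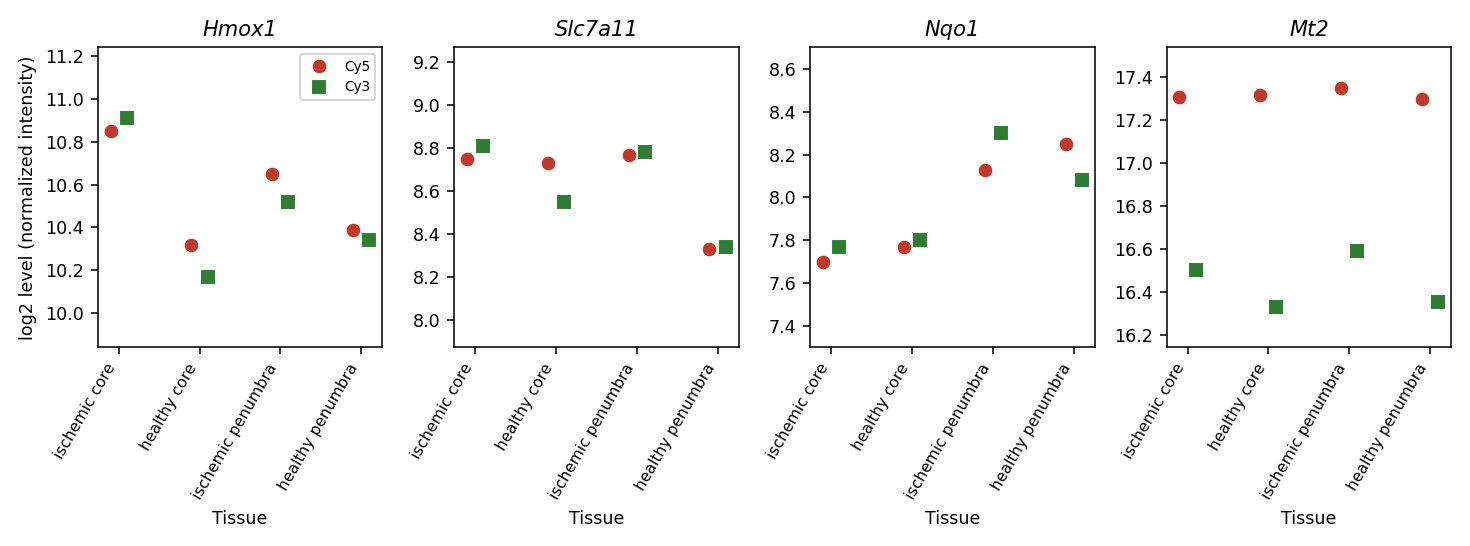
Single-channel log2 level of Hmox1, Slc7a11, Nqo1 and Mt2 in the 4 tissues, with Cy5 as circles and Cy3 as squares, 1 array per point and the same span on each axis. Hmox1 was highest in ischemic core in both dyes, and Nqo1 lower in both core pieces than in both penumbra pieces. Mt2 lay higher in Cy5 than in Cy3 in every tissue. Its ischemic core and penumbra lay above its healthy core and penumbra in Cy3 (16.50 and 16.59, against 16.33 and 16.35). In Cy5 this order did not hold (17.31 and 17.35, against 17.32 and 17.30).

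Brain tissue is a mixture, and a level in bulk RNA cannot tell fewer cells of a type from less RNA per cell. Neuron, astrocyte, endothelial and oligodendrocyte marker lists held 0 members past the 2-fold rule between ischemic and healthy tissue in either region. Neutrophil markers stood apart, with 3 of 5 measured markers past the 2-fold rule in ischemic core and 3 of 5 in ischemic penumbra. Their summed log2 level was 13.70 to 13.83 in ischemic core, against 11.38 to 11.44 in healthy core, and 13.34 to 13.72 in ischemic penumbra, against 11.70 to 11.81 in healthy penumbra. Microglia and macrophage markers, another source of Hmox1, had 0 of 8 past the 2-fold rule and medians of -0.03 in the core and 0.08 in the penumbra. By the lesser rule Tmem119 was lower in ischemic core (-0.44) and Aif1 higher in ischemic penumbra (0.40). Red cell markers, measured because heme induces Hmox1, had medians of 0.09 in the core and -0.14 in the penumbra, with 0 of 4 past the lesser rule. The part of these cells in the Hmox1 ratio, and in that of Hp below, was not tested. Astrocyte markers, from cells that carry much of the brain's Mt1, Mt2 and Nrf2 activity, had medians of -0.07 in the core and 0.08 in the penumbra, with 0 of 8 past the lesser rule.

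Choroid plexus markers were far higher in penumbra than in core pieces, with 6 of 6 past the 2-fold rule between ischemic and between healthy pieces. Their summed log2 level was 15.07 to 15.18 in ischemic penumbra, against 14.41 to 14.51 in healthy penumbra, and 10.51 in ischemic core, against 10.57 to 10.62 in healthy core. All 6 markers were past the lesser rule in ischemic over healthy penumbra, with a median of 0.67. Meningeal markers had a summed level of 14.15 to 14.18 in ischemic penumbra, against 13.66 to 13.70 in healthy penumbra, and 3 of 7 passed that rule. These lists moved with the penumbra ratios of Slc7a11, Gclc and Mt1, and their part in those ratios was not tested. Oligodendrocyte markers were lower in core pieces, with 6 of 6 past the lesser rule between healthy pieces (median -0.70) and between ischemic pieces (median -0.68). Oligodendrocyte markers thus moved in the direction of Nqo1 and Txnrd1. So did choroid plexus markers, with medians of -3.38 for core over penumbra between healthy pieces and -4.19 between ischemic pieces. The part of either list in these differences was not tested.

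Genes around the members were taken from 9 pathway lists, with 91 of 95 genes on the array. By the 2-fold rule 3 were higher in ischemic core (Maff, Hp and Atf3) and 1 in ischemic penumbra (Atf3), with 0 lower in either. Over all features 0.31% passed it in the core and 0.245% in the penumbra. By the lesser rule 11 (12.1%) were higher and 3 lower in ischemic core, where 4.4% of all features were higher and 0.982% lower. In ischemic penumbra 9 (9.89%) were higher and 5 lower, where 5.35% of all features were higher and 2.44% lower. The lists were chosen with earlier results of these data known, and these shares were not tested. The median over the 91 genes was -0.01 in core and 0.01 in penumbra tissue, and spike-in scaling would put both below 0.

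Among Nrf2 and its regulators, 1 of 11 genes passed the 2-fold rule in ischemic core and 0 in ischemic penumbra, with medians of -0.01 and -0.05. Maff, a small Maf partner of Nrf2, had 1.17 and 0.97 on the core arrays and 0.83 and 0.69 on the penumbra arrays, with means of 1.07 ± 0.14 (2.10-fold) and 0.76 ± 0.10 (1.70-fold). Nfe2l2 itself had 0.30 and 0.09 on the core arrays, and 0.31 and 0.30 on the penumbra arrays, which missed the lesser rule. Bach1, a repressor that competes with Nrf2 at AREs of Hmox1, averaged 0.23 ± 0.22 in the core and 0.24 ± 0.10 in the penumbra. Keap1 had -0.14 ± 0.26 and -0.25 ± 0.16.

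In heme and iron handling, 1 of 12 genes passed the 2-fold rule in ischemic core, with list medians of -0.02 in the core and 0.00 in the penumbra. Hp, the hemoglobin-binding protein haptoglobin, which neutrophils also store, had 1.21 and 1.30 on the core arrays and 0.67 and 0.92 on the penumbra arrays, 2.39-fold and 1.74-fold in the mean. Fth1, the ferritin heavy chain, had 1.06 and -0.95 on the core arrays and 1.13 and -0.73 on the penumbra arrays, a dye pattern like that of Mt2, with means of 0.06 ± 1.42 and 0.20 ± 1.31. Hpx, which binds free heme, averaged 0.23 ± 0.20 in core and -0.04 ± 0.08 in penumbra tissue, and the iron exporter Slc40a1 had -0.19 ± 0.13 and -0.02 ± 0.00.

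Glutathione genes had 0 of 14 past the 2-fold rule in either region, and medians of -0.04 in the core and 0.01 in the penumbra. Chac1, an enzyme that degrades glutathione and a target of Atf4, had 1.04 and 0.65 on the core arrays and 0.83 and 0.18 on the penumbra arrays, and passed the lesser rule in both. The glutaredoxin Glrx averaged -0.31 ± 0.12 in the core and -0.44 ± 0.11 in the penumbra, where it was lower by the lesser rule. Gpx3 and Gsta4 did not pass the lesser rule in either region. Thioredoxins and peroxiredoxins had 0 of 10 past either rule in either region, with means between -0.12 and -0.01 in the core and between -0.22 and 0.08 in the penumbra. Superoxide dismutases and catalase had 0 of 5 past either rule. Sod2, the mitochondrial dismutase, averaged 0.14 ± 0.04 in core and 0.18 ± 0.00 in penumbra tissue, and Sod1, whose probe is bright, had 0.04 ± 0.49 and 0.14 ± 0.43.

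Among the 14 genes of NADPH supply and other Nrf2 targets, 0 passed the 2-fold rule in either region. Osgin1, an oxidative stress-induced growth inhibitor, was higher in ischemic core by the lesser rule, with 0.35 and 0.34 on its arrays, and had 0.19 ± 0.03 in the penumbra. Ephx1, the microsomal epoxide hydrolase, was lower by that rule in both, with -0.34 ± 0.05 in core and -0.34 ± 0.06 in penumbra tissue. The carbonyl reductase Cbr3 averaged -0.25 ± 0.16 in the core and -0.55 ± 0.21 in the penumbra, lower by the lesser rule in the penumbra. It was also the 1 pathway gene past the 2-fold rule between healthy pieces, with -1.15 for healthy core over healthy penumbra. Nqo2 had 0.06 ± 0.17 and 0.27 ± 0.05.

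The regulators of metallothionein and Slc7a11 were read beside those genes. Mtf1, the zinc-sensing factor of the MRE, had 0.56 and 0.60 on the core arrays and 0.51 and 0.53 on the penumbra arrays. It was higher by the lesser rule in both regions. Mt1 and Mt2 passed that rule in neither, but it needs both arrays on the same side of 0. The dye bias of Mt2, 0.90 in core and 0.85 in penumbra tissue, holds its arrays on opposite sides unless the change is large. The rule therefore cannot show whether Mt2 changed less than Mtf1. The zinc exporter Slc30a1 averaged 0.22 ± 0.17 in the core and 0.26 ± 0.19 in the penumbra. From the same list of zinc and metal handling, Slc30a3 had -0.25 ± 0.25 and 0.02 ± 0.19. Slc39a10 had -0.14 ± 0.05 and -0.29 ± 0.06. Of the 8 genes on that list, 1 was higher and 0 lower by the lesser rule in each region. The list medians were -0.06 in the core and -0.01 in the penumbra. Among 7 glucocorticoid targets, 3 were higher and 2 lower by the lesser rule in ischemic core, and 2 higher and 2 lower in ischemic penumbra. Fkbp5, a glucocorticoid-induced cochaperone, averaged -0.67 ± 0.07 in core and -0.50 ± 0.11 in penumbra tissue, and Sult1a1 had -0.66 ± 0.12 and -0.33 ± 0.06. The clock gene Per1 had 0.57 ± 0.50 and 0.56 ± 0.33, and the EGF receptor inhibitor Errfi1 had 0.59 ± 0.14 and 0.38 ± 0.17.

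Atf4 and its targets had the highest median of the pathway lists, 0.25 in both regions, with 1 of 10 past the 2-fold rule in each. Atf3, a stress-induced factor, averaged 3.21 ± 0.22 (9.26-fold) in the core and 2.99 ± 0.07 (7.93-fold) in the penumbra. Atf4, which binds AAREs such as those of Slc7a11, averaged 0.42 ± 0.14 in core and 0.51 ± 0.26 in penumbra tissue, and the pseudokinase Trib3 had 0.68 ± 0.20 and 0.55 ± 0.17. All 3 were higher by the lesser rule in both regions. The amino acid transporter Slc7a5 had 0.30 ± 0.28 and 0.26 ± 0.07, which missed that rule.

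**Figure D4:**
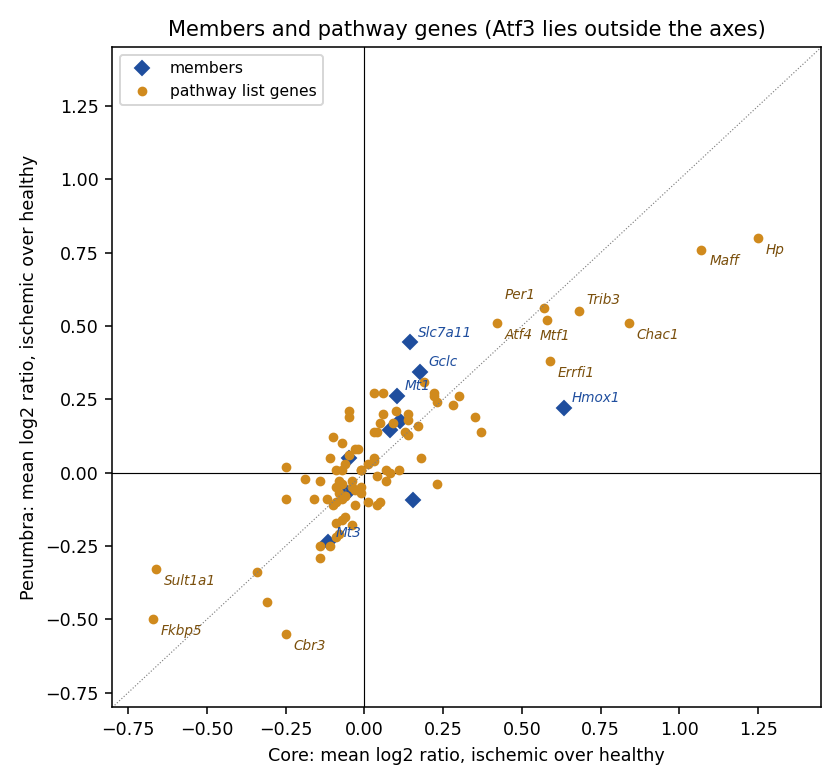
Mean log2 ratio of ischemic over healthy tissue in the core (horizontal) and in the penumbra (vertical) for the 10 members (blue diamonds) and the pathway list genes (orange circles); the dotted line marks equal ratios, and Atf3 (3.21 and 2.99) lies outside the axes. Hmox1 lies on the core side of that line and Slc7a11 and Gclc on the penumbra side, with Maff and Hp beyond every member; spike-in scaling would move every point down and left by 0.46 and 0.48.

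The features whose 4 array ratios lay nearest to those of Hmox1 were Abra, P2ry2 and Thbs1, at Euclidean distances of 0.05, 0.09 and 0.10 among 13982 features with a symbol. Their probes were dimmer, with log2 intensities of 7.46, 7.95 and 6.59, against 10.52 for Hmox1. Abra had 0.71 and 0.57 on the core arrays and 0.29 and 0.14 on the penumbra arrays. Those nearest to Mt2 were Rps23, Fth1 and Rps12, at 0.18, 0.20 and 0.24. Rps23 and Rps12 encode ribosomal proteins, and all 3 probes had a log2 intensity above 16, at 16.74, 17.14 and 16.60. Rps23 had 1.00 and -0.74 on the core arrays and 0.99 and -0.54 on the penumbra arrays, so its sign also followed the dye.

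**Figure D5:**
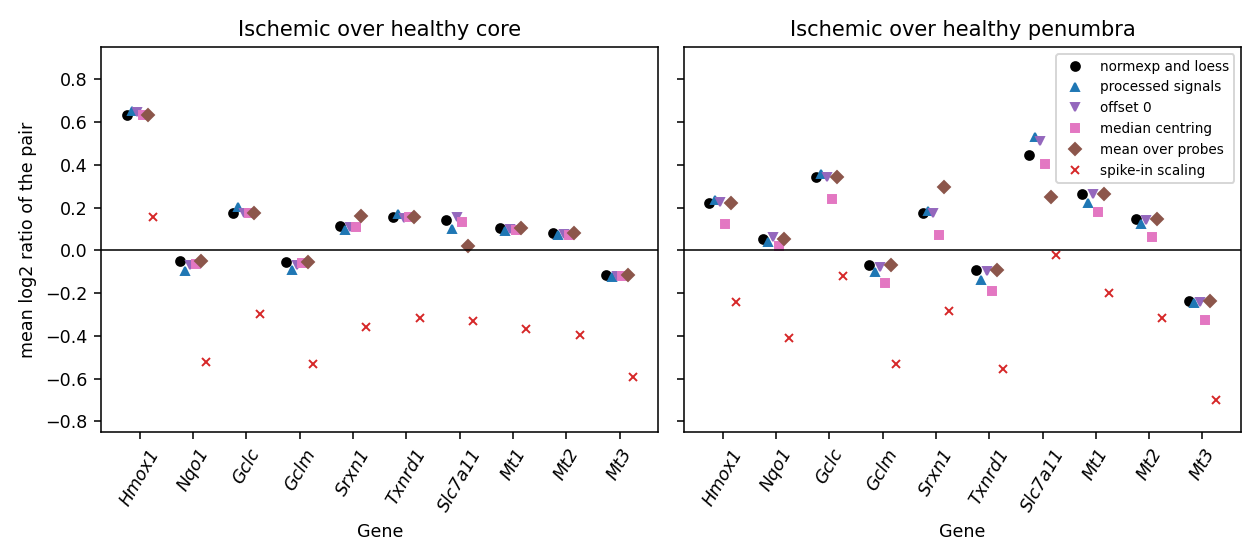
Mean log2 ratio of ischemic over healthy tissue for each member under 6 processing settings, core on the left and penumbra on the right. Hmox1 in the core stayed between 0.63 and 0.65 in all but the spike-in scaling, where it was 0.16; Slc7a11 in the penumbra ranged between 0.25 and 0.53, and -0.02 with spike-in scaling.

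Member values were recomputed under other settings, and the plot of settings shows their spread. All 20 member means kept their sign under the background, normalization, filter and probe settings other than spike-in scaling. Under these settings Mt2 ranged between 0.07 and 0.08 in the core and between 0.06, with median centring, and 0.15 in the penumbra. With spike-in scaling Mt2 was -0.39 in the core and -0.32 in the penumbra. A single array gave Mt2 values between -0.82 and 0.98 in the core and between -0.70 and 0.99 in the penumbra.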

How the data were processed

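Each of 4 two-colour arrays (1 slide) measured ischemic and healthy RNA, 2 arrays per region with swapped dyes. The deposited scanner files hold the intensity of each spot per dye; per the file headers and processing notes, Agilent Feature Extraction 11.0.1.1 wrote them. The deposited series table holds log10 ratios of the authors; they equalled the log10 of the processed Cy5 over Cy3 signal within 5e-06, so scale and direction were known. Its column medians, with no centring stated, were -0.0215, 0.00516, -0.0199 and -0.0115 for replicates 1 to 4.

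Median spot signals were corrected by normexp (offset 50) and normalized by loess within arrays (limma 3.58.1, R 4.3.3), giving control and outlier-marked spots weight 0 and dropping marked spots afterwards. Ratios were turned to ischemic over healthy, spots of a probe averaged, and the brightest probe stood for a gene. Probes were kept where both arrays of a pair showed at least 1 of the 2 tissues well above background; the difference between regions took features kept in either. Levels were compared within each dye after Aquantile. An accession table of GRCm38.p6 named 23374 of the 41174 probes, and 33269 features resulted. Coordinates are those of GRCm38.p6. Tables used Python 3.11.15, pandas 2.3.3, numpy 2.4.6 and matplotlib 3.10.9.

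Arrays had medians of 192 to 225.5 (Cy3) and 284 to 310 (Cy5) per spot, over backgrounds of 64 to 66 and 70 to 71; the number of arrays limits the precision. Slide and scan could not be tested as batches. P-values of limma over arrays measure only the spread between these arrays, which may be technical. The scripts were tested on simulated data.

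Members, lists and rules were chosen with earlier results of these data known. All members were named, and up to 4 genes per pathway list: called genes first, then those with the largest mean. For Hmox1, which had the largest mean over both regions, and for Mt2, the 3 nearest features over the 4 arrays were named. Alternatives covered background correction, normalization, spike-in scaling, filters, probe choice, single arrays, single dyes, the series table and limma.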

Additional observations from a re-analysis of the deposited data

Results flagged for a closer look

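Gsta4, a glutathione transferase that detoxifies lipid aldehydes, had log2 ratios of ischemic over healthy tissue of -0.01 and -0.09 on the core arrays, and 0.21 and 0.21 on the penumbra arrays. Its core minus penumbra difference was -0.26, from means of -0.05 in the core and 0.21 in the penumbra. It drew attention because every core array lay below 0 and every penumbra array above 0; with 1 dye-swapped pair per region the difference was not tested. The core ratios are close to 0, and spike-in scaling would put all 4 arrays below 0.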

How the results depend on the processing

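The count of members past the 2-fold rule, or past the difference rule, was 0 under every alternative run, limma included. Limma with no dye term gave 1 member an adjusted p under 0.05 in the core (1.54% of all features), 0 in the penumbra (1.8%) and 0 for the difference (0.00792%). At an unadjusted p under 0.05 there were 3 members in the penumbra (20.3% of features) and 2 for the difference (4.4%). With a dye term it gave 4 in the core (28.1% of features), 7 in the penumbra (42.1%) and 3 for the difference (7.09%), of which 0 reached 1 log2 unit. Counts under the lesser rule moved more; their alternatives were added after the data were seen. In the core the count was 6 with spike-in scaling, in place of 1, and 2 to 3 with an array left out. In the penumbra it was 1 with median centring, 4 with spike-in scaling, 1 with the mean over probes and 4 with either array left out, in place of 2. Between healthy pieces it was 1 in Cy3 alone and 3 with processed signals, offset 0 or the mean over probes, in place of 2. Between ischemic pieces it was 2 in Cy3 alone, in place of 1. For the difference it was 2 with processed signals, with offset 0 and with the series table, in place of 1, and 2 to 4 with an array left out. The cause was not tested, except that spike-in scaling adds calls on the lower side by its own shift and a left-out array removes the cancelling of dye bias.

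Of 240 alternative member values, 30 moved by more than the SD between arrays, and 19 of 20 means turned below or stayed below 0 with spike-in scaling. Many of the 240 could not move. The filter settings and limma returned the main value, and leaving out 1 array of 2 shifts a mean by less than their SD. The series table repeated the processed signals. The SD itself ran from 0.001 (Nqo1 in the penumbra) to 1.27 (Mt2 in the core), so the count of 30 does not measure stability. Over all features, calls past the 2-fold rule in ischemic core were 76 higher and 0 lower, against 230 and 15 with processed signals or the series table, 149 and 1 with offset 0, and 31 and 29 with spike-in scaling. In ischemic penumbra they were 60 higher and 1 lower, against 189 and 30, 109 and 6, and 29 and 41. Between healthy pieces they were 78 and 204, against 307 and 545 with processed signals, 160 and 361 with offset 0, and 87 and 374 in Cy5 alone. Between ischemic pieces they were 110 and 227, against 416 and 621, 219 and 413, and 135 and 408 in Cy3 alone. The difference rule called 10 and 5, against 93 and 86 with processed signals, 28 and 28 with offset 0, and 12 and 23, 17 and 8, 13 and 11, and 13 and 17 without replicates 1 to 4. Ischemic core calls were 83 and 12 without core replicate 1, and 93 and 0 without core replicate 2. Leaving out penumbra replicate 3 gave 75 and 11 in ischemic penumbra, and leaving out replicate 4 gave 77 and 1. No paired analysis was possible because core and penumbra arrays share no replicate number; the dye term of limma groups arrays by dye orientation, and its calls are given above.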
